A study of Mus musculus with 2 samples.

Results

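Chromatin accessibility was described for 9 genes of the activator protein 1 (AP-1) and immediate early group, which are Fos, Fosb, Fosl1, Fosl2, Jun, Junb, Jund, Atf3 and Egr1, out of 55341 genes of the GENCODE M21 annotation. A peak belonged to a gene if it overlapped the gene body or the 2 kb upstream of it, and counts were taken from nuclei with 2000 to 100000 counts in all. The data are single-nucleus ATAC sequencing (snATAC-seq) of whole mouse kidneys at E15.5, with 1 library of each group. The Enl-T1 library comes from embryos that are heterozygous for Enl flox-T1, an allele that Cre switches to the Wilms tumor insertion insNHL of ENL, a reader of acylated histones, and that also carry 1 Wt1 GFPCre allele. The Enl-WT embryos carry Wt1 GFPCre without the Enl flox-T1 allele. The Cre allele is driven by the Wt1 promoter, replaces 1 working copy of Wt1 in both groups and acts in the nephron and stromal lineages, so the ureteric and endothelial lineages are not its described targets. All mice are labelled B6, and how many embryos went into a library could not be read from the labels or methods. The labels of both libraries list a digestion with enzymes, whereas the methods of the study describe that step for whole cells and a direct lysis for nuclei, so which of them these nuclei went through is not settled here. With 1 library per group there is no test, and a difference between genotypes and a difference between these libraries cannot be told apart.

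AP-1 is a dimer of basic leucine zipper proteins. FOS proteins must pair with a JUN protein, whereas JUN proteins can also pair with each other or with ATF proteins such as ATF3, and the dimers bind the AP-1 site or the related cyclic AMP response element (CRE). Most of these genes are switched on within minutes by growth factors, stress or tissue handling, without new protein synthesis, and their promoters are often open before any stimulus. EGR1 is a zinc finger factor of the same early response and binds other sequences.

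The promoters are shown first because these genes are known for being read out from short stretches just before the start site. RefSeq promoter sequences on GRCm38.p6, the build of the files, matched 7 of the 9 genes, all but Fosl1 and Egr1. The 150 bases before the start site, on the strand of the gene, are given for the 5 genes in which they lie in a region called open in both libraries. Capitals mark TGACG on either strand (the core of the CRE, CGTCA when it is on the other strand), TATAAA on the gene strand, and TGACATCA, a variant AP-1 site.
Fos, chr12:85473740-85473889, plus strand: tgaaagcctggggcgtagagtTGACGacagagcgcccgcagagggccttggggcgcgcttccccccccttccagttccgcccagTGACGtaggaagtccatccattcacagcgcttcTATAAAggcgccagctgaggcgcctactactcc
Fosb, chr7:19310046-19310195, minus strand: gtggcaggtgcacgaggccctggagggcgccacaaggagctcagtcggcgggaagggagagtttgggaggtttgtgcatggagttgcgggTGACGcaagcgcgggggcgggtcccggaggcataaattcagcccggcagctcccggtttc
Jun, chr4:95052223-95052372, minus strand: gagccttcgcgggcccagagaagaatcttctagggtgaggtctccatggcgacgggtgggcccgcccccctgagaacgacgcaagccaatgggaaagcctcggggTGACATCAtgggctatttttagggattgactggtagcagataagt
Junb, chr8:84978749-84978898, minus strand: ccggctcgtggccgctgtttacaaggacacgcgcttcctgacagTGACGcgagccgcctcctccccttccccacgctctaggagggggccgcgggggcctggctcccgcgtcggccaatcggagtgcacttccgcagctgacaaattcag
Atf3, chr1:191183334-191183483, minus strand: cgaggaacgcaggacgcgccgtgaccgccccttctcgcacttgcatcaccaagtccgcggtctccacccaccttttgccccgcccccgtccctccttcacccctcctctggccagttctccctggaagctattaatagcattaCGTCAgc

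The core TGACG was found in 4 of the 7 promoters of 300 bases (Fos, Fosb, Junb and Atf3), beside 20.8% of 32851 RefSeq promoters of the same length. TGACATCA was found in that of Jun, 45 bases before the start, beside 3.62% of all promoters. TATAAA on the gene strand was found in Fos at 33 bases before the start and in Junb at the start itself, beside 8.32%. CCAAT on either strand was found in Jun, Junb and Atf3, beside 37.4%. The full AP-1 site TGACTCA and the full CRE TGACGTCA were in 0 of the 7, beside 5.20% and 1.79% of all promoters. The CArG box of serum response factor was in 0 of the 7, beside 1.63%. The windows of Fosl2 (chr5:32136222-32136521) and Jund (chr8:70697489-70697788) held 0 bases of a shared region. That of Jund ends before the GENCODE start at chr8:70698949, so its start region was not searched here. Sites further upstream than the 300 bases, and those of Fosl1 and Egr1, were not searched either. These are matches of letters in a window and do not show binding.

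Full AP-1 sites did occur elsewhere within the open regions of 3 of the 9 genes, in the start regions of Fosl1 and Fosl2 and in introns of Fosl1 and Atf3. Both Atf3 sites lie upstream of the start whose promoter is printed above, since that start is well inside the annotated gene. A full CRE lay in the start region of Jund. Of all shared regions 19.2% hold the AP-1 site and 1.58% the CRE, and within 2 kb of a start site 15.1% and 2.96%. These few sites do not set the members apart. Each is given with 10 bases on each side, on the plus strand of GRCm38.p6, with the site in capitals (TGAGTCA is TGACTCA on the other strand).
Fosl1 start region, chr19:5447887-5447913: gaggcgcgagTGAGTCAgaaccgcagc
Fosl1 intron, chr19:5448845-5448871: tcactgaggcTGAGTCAccctgggtgc
Fosl2 start region, chr5:32135844-32135870: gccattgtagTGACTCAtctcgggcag
Atf3 intron, chr1:191193790-191193816: gtgttccaccTGAGTCAccctgtttcc
Atf3 intron, chr1:191216295-191216321: taatgtcagaTGAGTCAgccgctgggc
Jund start region, chr8:70698725-70698752: cccacccccaTGACGTCAacccacaatg

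Peaks were called for each library by itself, 159560 in Enl-WT with a mean width of 1013 bp and 130027 in Enl-T1 with a mean width of 912 bp. Their union held 110706 regions with a peak of both libraries (shared regions), 31 of them in the windows of the 9 genes, which came from 34 peaks of Enl-WT and 31 of Enl-T1. The 9472 nuclei kept from Enl-WT had a median of 14789.5 counts and the 12635 from Enl-T1 a median of 8753, and 149 barcodes were found in both libraries. Values are CPM, counts scaled to the same total of counts in shared regions, and both ends of a fragment are counted, so intervals (95%) were computed on fragments and cover counting error only. Nuclei were clustered and named from marker genes, giving 1829 Enl-WT and 4140 Enl-T1 nephron progenitor-like nuclei, 2943 and 4810 stroma-like, 929 and 1877 ureteric epithelium-like, and 754 and 597 endothelial-like nuclei. In the clusters of nephron progenitors the markers Six2, Cited1 and Eya1 were raised. The Enl-T1 part of this class depended on the processing. It held 2780 nuclei when each library was clustered by itself and 1255 once likely doublets were removed. The Enl-WT and Enl-T1 nuclei of this class therefore need not be at the same stage. Different clusters held the progenitor-like nuclei of the libraries. Cluster 2 held 1827 Enl-WT and 105 Enl-T1 nuclei, while clusters 0 and 1 held 2054 and 1981 Enl-T1 nuclei and 2 from Enl-WT.

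The question of the comparison is whether the early response genes are more or less open in the mutant kidney. Summed over its shared regions, no member differed between the libraries by 1.5-fold or more, in all nuclei or in any of the 4 classes. This is 0 of 9 in each direction. Of all genes with at least 200 counts in both libraries together, 2.60% were higher and 1.77% lower in Enl-T1 in all nuclei, 3.58% and 3.90% in progenitor-like nuclei, 1.99% and 1.63% in stroma-like nuclei, 1.37% and 0.718% in ureteric epithelium-like nuclei, and 1.20% and 1.25% in endothelial-like nuclei, so 0 of 9 is near the background. The median log2 ratio of the members (Enl-T1 over Enl-WT) was -0.04 in all nuclei beside -0.02 over all genes, 0.03 beside 0.01 in progenitor-like nuclei, -0.00 beside 0.00 in stroma-like nuclei, 0.03 beside -0.01 in ureteric epithelium-like nuclei, and -0.08 beside -0.02 in endothelial-like nuclei.

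**Figure D1:**
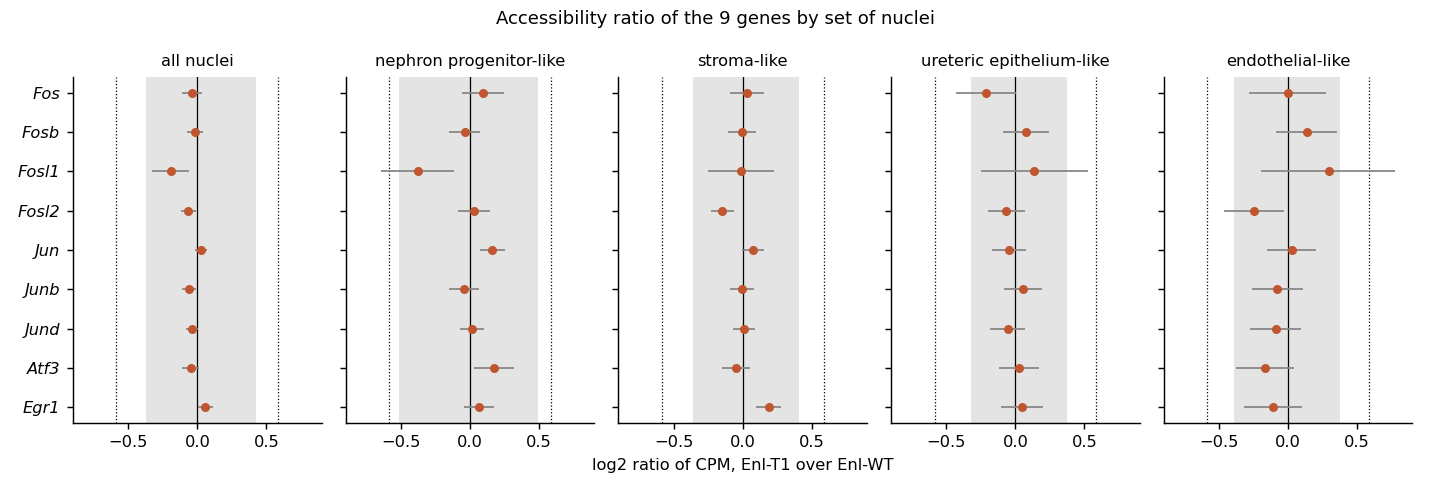
Log2 ratio of CPM (Enl-T1 over Enl-WT, x axis) of each of the 9 genes in 5 sets of nuclei, with 95% counting intervals from 1 library per group. The grey band spans the 5th to 95th percentile of all genes and the dotted lines mark 1.5-fold; all 45 points lie between the dotted lines.

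Among the FOS genes, Fos (ENSMUSG00000021250.13, chr12:85473890-85477273), the founding member, had 44.2 CPM in Enl-WT and 47.2 CPM in Enl-T1 progenitor-like nuclei with a log2 ratio of 0.09 (-0.06 to 0.25). In ureteric epithelium-like nuclei it had 52.6 and 45.4 CPM, a log2 ratio of -0.21 (-0.43 to 0.00). Fosb (ENSMUSG00000003545.3, chr7:19302696-19310051), a close relative of Fos, had 87.0 and 84.8 CPM in progenitor-like nuclei and 92.9 and 92.6 CPM in stroma-like nuclei. The intervals of these ratios reached 0 or passed it.

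Fosl1 (ENSMUSG00000024912.6, chr19:5447547-5455946), which encodes FRA-1, had the lowest ratio of the group. It had 447 counts (17.4 CPM) in Enl-WT and 519 counts (13.4 CPM) in Enl-T1 progenitor-like nuclei for a log2 ratio of -0.38 (-0.64 to -0.11). Over the regions matched between the libraries with an overlap of 80% the log2 ratio was -0.66, which is past 1.5-fold, and per kb of called peak the levels were 8.65 and 8.35 CPM. In stroma-like nuclei Fosl1 had 16.0 and 15.9 CPM, and in endothelial-like nuclei, with 196 and 117 counts, its log2 ratio was 0.29 (-0.20 to 0.78). Fosl1 was the least open member per length, with 8.87 CPM per kb in Enl-WT and 9.74 CPM per kb in Enl-T1 over all nuclei.

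Fosl2 (ENSMUSG00000029135.10, chr5:32135801-32157842), which encodes FRA-2, had 130 CPM in Enl-WT and 117 CPM in Enl-T1 stroma-like nuclei with a log2 ratio of -0.15 (-0.23 to -0.06), and 121 and 102 CPM in endothelial-like nuclei, a log2 ratio of -0.24 (-0.46 to -0.03). In progenitor-like nuclei it was at 76.5 and 78.2 CPM. The lower values went with width. The peak over its start site spans 1744 bp in the former library and 850 bp in the latter, and per kb of called peak the stroma-like nuclei had 25.6 CPM in Enl-WT and 31.5 CPM in Enl-T1, the opposite order.

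Of the JUN genes, Jun (ENSMUSG00000052684.4, chr4:95049034-95052222), the founding member, stood above equality in progenitor-like nuclei. It had 3206 counts (125 CPM) in Enl-WT and 5406 counts (139 CPM) in Enl-T1 for a log2 ratio of 0.16 (0.07 to 0.25), and the ratio was above 0 under 17 of 17 other ways of processing. The Enl-T1 nuclei of cluster 1 stood at 147 CPM and those of cluster 0 at 133 CPM, against 125 CPM for the Enl-WT nuclei of cluster 2. The 105 Enl-T1 nuclei of cluster 2 were at 122 CPM (92.9 to 158), an interval that takes in all of these values. Jun was at 133 and 140 CPM in stroma-like nuclei and at 167 and 170 CPM in endothelial-like nuclei.

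Junb (ENSMUSG00000052837.6, chr8:84974484-84978718), a JUN protein that often limits JUN activity, was at 86.9 and 84.4 CPM in progenitor-like nuclei and at 116 and 115 CPM in stroma-like nuclei. Jund (ENSMUSG00000071076.6, chr8:70698949-70700616), the JUN gene that many resting cells keep active, was at 141 and 142 CPM in progenitor-like nuclei and at 141 and 142 CPM in stroma-like nuclei. Neither gene had a log2 ratio beyond 0.09 in size in any of the 5 sets.

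Atf3 (ENSMUSG00000026628.13, chr1:191170296-191218039), a stress-induced factor that pairs with JUN proteins, had 1271 counts (49.5 CPM) in Enl-WT and 2163 counts (55.8 CPM) in Enl-T1 progenitor-like nuclei with a log2 ratio of 0.17 (0.03 to 0.32). In stroma-like nuclei it was at 87.4 and 84.4 CPM and in endothelial-like nuclei at 128 and 114 CPM. Egr1 (ENSMUSG00000038418.7, chr18:34859823-34864984) had 3694 counts (101 CPM) in Enl-WT and 4148 counts (115 CPM) in Enl-T1 stroma-like nuclei for a log2 ratio of 0.19 (0.10 to 0.28) that was above 0 under 17 of 17 other ways of processing, with a range of 0.12 to 0.39. In progenitor-like nuclei Egr1 was at 91.4 and 95.6 CPM, with an interval of the log2 ratio from -0.04 to 0.17.

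The 31 regions behind these sums were then compared one by one, each tested region having at least 200 counts in both libraries together. In all nuclei 0 of 31 were past 1.5-fold, where 9.34% of shared regions were higher and 5.20% lower in Enl-T1. In progenitor-like nuclei 1 of 30 was higher and 1 lower, beside 11.4% and 12.4%, and in stroma-like nuclei 0 of 30, beside 7.22% and 5.93%. In ureteric epithelium-like nuclei 0 of 27 were higher and 1 lower, beside 3.93% and 2.76%, and in endothelial-like nuclei 1 of 20 was higher and 1 lower, beside 1.40% and 5.26%. The counts are too small to set apart from these shares, which include regions far from genes.

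The progenitor region that was higher is an intron of Atf3, chr1:191178262-191179242, at 65 Enl-WT and 149 Enl-T1 counts, with a log2 ratio of 0.60 (-0.01 to 1.24). The one that was lower is the Fosl1 intron at chr19:5448402-5449285 that holds an AP-1 site, at 116 and 114 counts (4.52 and 2.94 CPM), a log2 ratio of -0.62 (-1.17 to -0.07), with 884 bp called in the first and 725 bp in the second library. In ureteric and endothelial nuclei the lower region was the same stretch of the Jun coding sequence, chr4:95050438-95051044, with log2 ratios of -0.85 (-1.35 to -0.36) and -0.69 (-1.41 to -0.02). Enl-WT has 607 bp called there and Enl-T1 456 bp. The higher endothelial region lies upstream of Jund at chr8:70696282-70697170, at 14.8 and 23.5 CPM on 145 and 112 counts, a log2 ratio of 0.67 (0.14 to 1.19).

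At the start sites, the progenitor-like nuclei had 70.3 CPM in Enl-WT and 83.0 CPM in Enl-T1 at Jun (chr4:95051928-95052839) for a log2 ratio of 0.24 (0.12 to 0.36). At Atf3 (chr1:191182987-191183907) they had 17.8 and 23.4 CPM, a log2 ratio of 0.39 (0.16 to 0.63). Called widths at both are nearly equal, at 912 and 899 bp and at 909 and 899 bp. A region upstream of Fosl2, chr5:32132921-32133906, which is also the start site of Gm10463, was at 15.7 CPM in Enl-WT and 23.1 CPM in Enl-T1 progenitor-like nuclei with a log2 ratio of 0.56 (0.32 to 0.81), and in stroma-like nuclei at 27.6 and 29.2 CPM. In stroma-like nuclei the start region of Egr1 had 29.7 and 36.7 CPM, a log2 ratio of 0.31 (0.14 to 0.47). The Jun regions also overlap the antisense gene Junos, the region after Junb overlaps Prdx2, and the start and 3′ regions of Jund overlap Gm11175, so counts there cannot be assigned to 1 gene.

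Widths moved with the ratios. Of the 31 regions, 25 were called wider in Enl-WT and 6 wider in Enl-T1, and Pearson's r across regions between the log2 ratio of CPM and the log2 ratio of width was 0.60 in all nuclei (n = 31), a description over regions that share libraries and depth. The start regions of Fosb (2096 and 1066 bp), Fosl2 (1744 and 850 bp) and Jund (1574 and 876 bp) had log2 ratios of -0.11, -0.20 and -0.11 in all nuclei. Over the 12 regions whose widths differ by less than 5% the ratios ran from -0.18 to 0.16. Per kb of called peak, the median log2 ratio of the members was 0.13 in all nuclei beside 0.11 over all genes, 0.26 beside 0.14 for the progenitor-like class, 0.30 beside 0.14 for stroma, 0.28 beside 0.13 for ureteric epithelium and 0.20 beside 0.12 for endothelium.

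**Figure D2:**
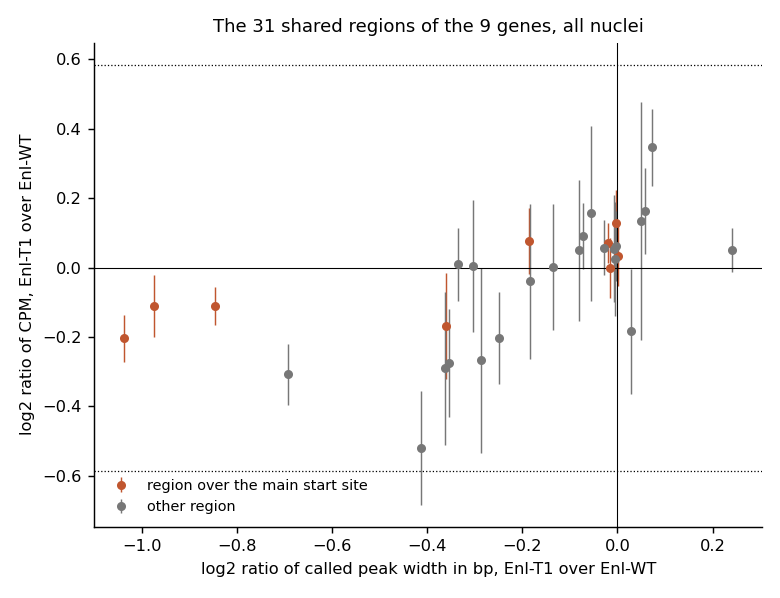
Log2 ratio of CPM (y axis) against log2 ratio of called peak width (x axis), Enl-T1 over Enl-WT, for the 31 shared regions of the 9 genes in all nuclei, with 95% counting intervals. The regions over the main start site are in orange, the dotted lines mark 1.5-fold, and the start regions of Fosb, Fosl2 and Jund, called wider in Enl-WT, lie at -0.11, -0.20 and -0.11.

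Levels differed between cell classes. CPM are relative to all counts in shared regions, and the share of these counts beyond 2 kb of a start site differed too. It was 32.0% in Enl-WT and 34.0% in Enl-T1 immune-like nuclei, and 45.2% and 45.1% in progenitor-like nuclei. Levels of all genes by class were not set beside those below, so whether the order of classes is particular to the members was not tested. Over the classes with at least 50 nuclei, the highest level of Atf3 was 2.59-fold its lowest in Enl-WT and 2.72-fold in Enl-T1. Nephron progenitor-like nuclei were the lowest in both libraries at 49.5 and 55.8 CPM, with intervals below those of stroma-like nuclei at 87.4 and 84.4 CPM and of ureteric epithelium-like nuclei at 108 and 110 CPM. Endothelial-like nuclei were at 128 and 114 CPM and immune-like nuclei at 103 (75.2 to 137) and 152 (119 to 190) CPM, and the immune interval in Enl-WT takes in the ureteric and the endothelial level.

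Junb had the widest spread of the group in Enl-WT, 3.03-fold, from 86.9 CPM in progenitor-like nuclei to 263 CPM in immune-like nuclei, and 2.06-fold in Enl-T1, from 84.4 to 174 CPM. Endothelial-like nuclei came next at 158 and 149 CPM. The immune values rest on 100 and 162 nuclei, with intervals of 218 to 315 and 139 to 215 CPM that do not overlap. The Enl-WT level was the higher by more than 1.5-fold, but the share of all genes past the fold was not computed in this class. The regions of Junb were called wider in Enl-WT, and per kb of called peak its immune levels differed by less than 1.5-fold. Fosl1 in immune-like nuclei was at 33.5 (18.7 to 55.2) CPM in Enl-WT and 16.2 (6.98 to 31.8) CPM in Enl-T1, on 30 and 16 counts, with intervals that overlap. Fosl2 was at 130 CPM in stroma-like, 125 CPM in ureteric epithelium-like, 125 CPM in immune-like and 121 CPM in endothelial-like nuclei of Enl-WT, whose intervals overlap, and lowest in progenitor-like nuclei at 76.5 CPM.

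Egr1 and Jund had the narrowest spread over classes in Enl-WT, 1.37-fold and 1.42-fold, and Jun in Enl-T1, 1.48-fold. Per length these 3 were the most open members, at 46.0 CPM per kb in Enl-WT and 56.3 in Enl-T1 for Jund, 47.8 and 52.2 for Jun, and 48.3 and 47.9 for Egr1, over all nuclei. Atf3 was at 12.69 and 12.99 CPM per kb.

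**Figure D3:**
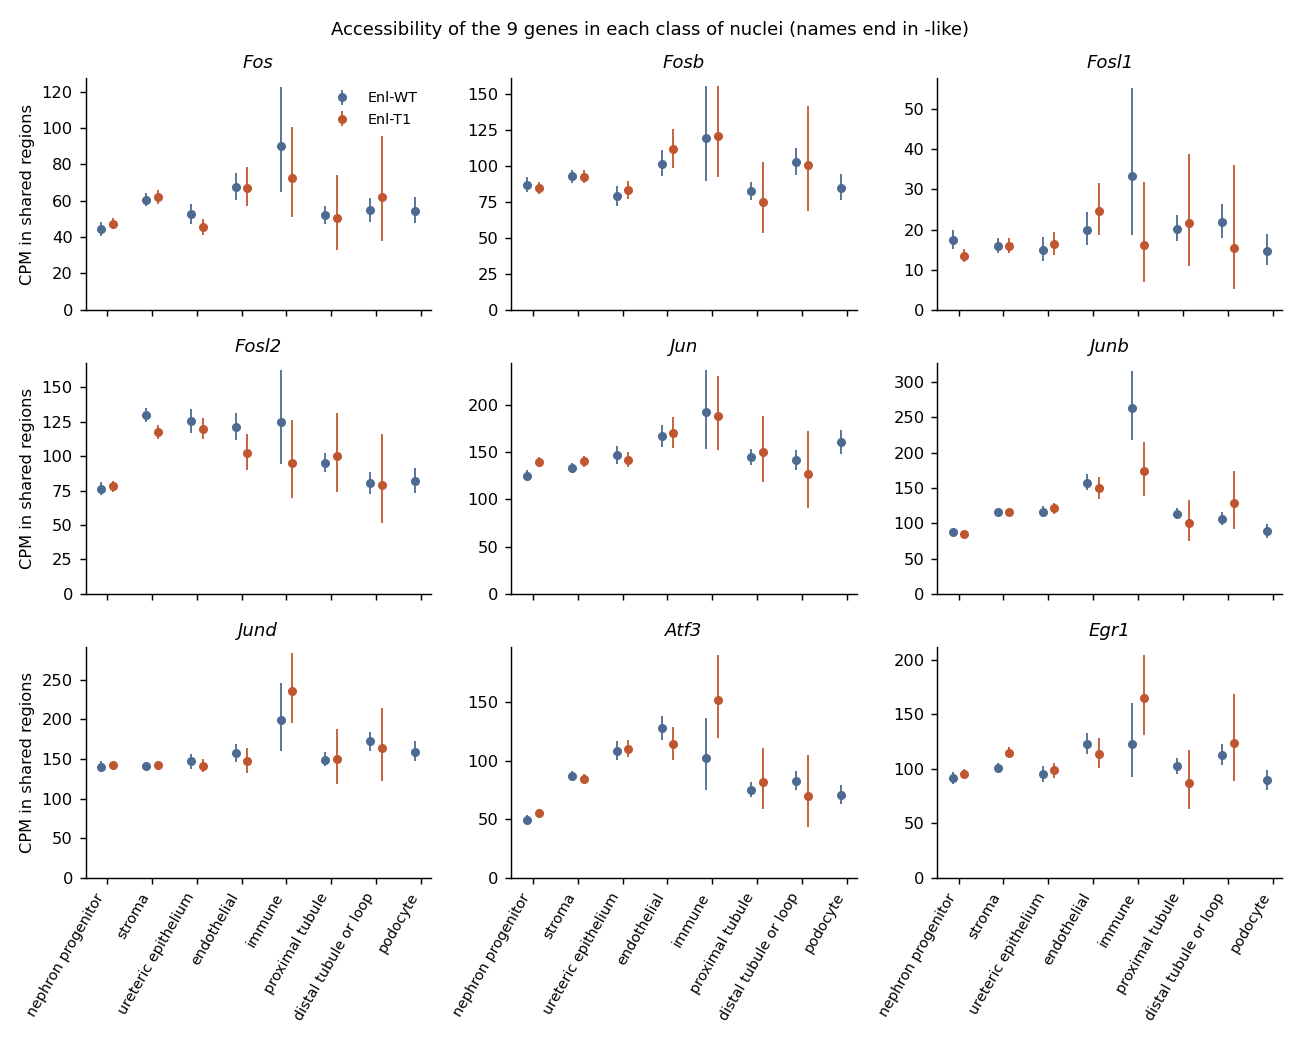
CPM of each of the 9 genes (y axis, from 0) by class of nuclei (x axis) in Enl-WT (blue) and Enl-T1 (orange), with 95% counting intervals; podocyte-like nuclei are shown for Enl-WT alone since Enl-T1 had 3. Atf3 is lowest in nephron progenitor-like nuclei in both libraries, and the intervals of most library pairs overlap.

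Across the 15 units of class and library with at least 50 nuclei, the log2 level of Junb followed the mean of the other members most closely (Pearson's r = 0.94) and that of Fosl2 least (r = 0.42). The pair Fos and Junb had r = 0.89 and the pair Fosb and Egr1 r = 0.87, while Fosl2 and Jund had r = -0.06. Outside the members and the lists of related genes, the 5 genes whose levels were most like the mean of the members were Ninj2 (r = 0.97), Tubb2a (0.96), Stat5a (0.96), Brat1 (0.96) and Grk2 (0.94), among 14088 genes. The units share their libraries, and no test was made.

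In single nuclei, the share with a count at the start region was lower in Enl-T1 for all 9 genes and followed depth. For Jun it was 40.3% in Enl-WT and 30.4% in Enl-T1, for Jund 46.5% and 31.8%, and for Fos 21.0% and 14.6%. After each nucleus was thinned to 1500 fragments, which dropped 134 Enl-WT and 412 Enl-T1 nuclei, the shares were 11.1% and 12.5% for Jun, 13.9% and 12.7% for Jund, and 5.49% and 5.38% for Fos. The median log2 ratio of the 9 shares went from -0.52 before thinning to 0.03 after it. In thinned progenitor-like nuclei the share for Jun was 9.96% (8.62 to 11.4) in Enl-WT against 12.2% (11.3 to 13.3) in Enl-T1. In thinned stroma-like nuclei that for Egr1 was 4.17% (3.48 to 4.96) and 5.82% (5.16 to 6.52). Both went in the direction of the CPM, but thinned fragments are part of those behind the CPM and add no separate evidence. The intervals take the nuclei of 1 library as units and do not cover variation between embryos.

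The number of the 9 start regions counted in a nucleus was set by the depth of thinning, so joint opening cannot be read from it. A thinned nucleus had a count in a mean of 0.616 of the 9 in Enl-WT and 0.611 in Enl-T1, the most in 1 nucleus being 4 and 5. Progenitor-like nuclei had 0.498 and 0.517, stroma-like nuclei 0.651 and 0.671, endothelial-like nuclei 0.773 and 0.723, and immune-like nuclei 0.814 and 0.908. Nuclei with 3 or more of the 9 made up 1.88% of Enl-WT and 1.94% of Enl-T1.

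Genes around the members in the pathway were taken as 4 lists. In progenitor-like and in stroma-like nuclei, 0 genes of any list were past 1.5-fold. Of all genes, 3.58% were higher and 3.90% lower in progenitor-like nuclei, and 1.99% and 1.63% in stroma-like nuclei. The median log2 ratio over all genes was 0.01 and 0.00. The 23 other immediate early genes had a median log2 ratio of -0.01 in progenitor-like and -0.04 in stroma-like nuclei, the 20 other AP-1 and basic leucine zipper partners -0.02 and -0.06, the 20 upstream kinases and serum response factors -0.04 and -0.03, and the 18 brakes on the pathway, such as dual specificity phosphatases, 0.01 and -0.06. The gene with the largest ratio of any list in these classes was Cebpb, a leucine zipper factor of inflammation and fat, in stroma-like nuclei, at 38.8 and 27.5 CPM, a log2 ratio of -0.49 (-0.66 to -0.33). In ureteric epithelium-like nuclei Cebpb was the 1 gene of the lists past the fold, at 529 Enl-WT and 405 Enl-T1 counts, for a log2 ratio of -0.73 (-1.001 to -0.461), with called widths of 2025 and 1186 bp and nearly equal levels per kb, 19.96 and 20.55 CPM. In endothelial-like nuclei it was Jdp2, a repressor that pairs with JUN, at 37.9 and 24.9 CPM, a log2 ratio of -0.60 (-1.05 to -0.17). Both were named after their values were seen. Of all genes, 0.718% were lower past the fold in ureteric epithelium-like nuclei and 1.25% in endothelial-like nuclei.

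Larger ratios were found around the gene windows. Within 50 kb of the annotated 5′ ends of the 9 genes there were 96 further shared regions, 44 of them beyond 2 kb of any start site. In progenitor-like nuclei 3 of 33 tested were higher and 2 lower in Enl-T1, beside 15.2% and 15.4% of all such regions. In stroma-like nuclei 0 of 33 were higher and 1 lower, beside 9.33% and 7.20%. In ureteric epithelium-like nuclei 1 of 26 was higher and 0 lower, beside 5.71% and 3.72%, and in endothelial-like nuclei 0 of 16, beside 2.25% and 9.87%. The counts of each set give no share above the background in progenitor-like and stroma-like nuclei, and the regions named next were chosen after their values were seen.

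The region with the highest ratio lay 43 kb after the start of Fos, at chr12:85516636-85517839, between genes, with Jdp2 the nearest other coding gene at 81.2 kb. Progenitor-like nuclei had 111 counts (4.32 CPM) in Enl-WT and 517 counts (13.3 CPM) in Enl-T1 with a log2 ratio of 1.63 (1.20 to 2.07), although the called peak was narrower in Enl-T1 (1204 and 985 bp). The Enl-T1 nuclei of clusters 0 and 1 were at 14.6 and 12.5 CPM and the Enl-WT nuclei of cluster 2 at 4.25 CPM, while the 105 Enl-T1 nuclei of cluster 2 gave 2 counts (0.05 to 11.6 CPM). Stroma-like nuclei were at 1.66 and 1.58 CPM, ureteric epithelium-like nuclei at 0.99 and 1.56 CPM and podocyte-like nuclei of Enl-WT at 4.58 CPM. Of these classes, the progenitor-like nuclei alone were past 1.5-fold with enough counts. The start region of Fos in the same progenitor-like nuclei was at 29.4 and 32.6 CPM, with an interval of the log2 ratio from -0.04 to 0.33.

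The region 27 kb before Fos (chr12:85446672-85447653) had 9.58 and 5.93 CPM in progenitor-like nuclei, a log2 ratio of -0.69 (-1.07 to -0.31) that was -0.17 in an alternative that removed likely doublets and clustered the rest anew. That alternative also redrew the class, from 1829 Enl-WT and 4140 Enl-T1 nuclei to 1283 and 1255, since a cluster of 2531 nuclei of Enl-T1 was then named early nephron epithelium-like, so the effects of removal and of naming cannot be told apart. The region 30 kb before Jun, inside Junos (chr4:95082301-95083139), had 57 counts (2.22 CPM) in Enl-WT and 205 counts (5.29 CPM) in Enl-T1 progenitor-like nuclei for a log2 ratio of 1.25 (0.64 to 1.91), with widths of 835 and 810 bp. It was more open in stroma-like nuclei, at 10.16 and 12.03 CPM, and most open in endothelial-like nuclei, at 20.6 and 20.7 CPM. In ureteric epithelium-like nuclei the higher region was another one inside Junos (chr4:95070183-95071074), at 92 Enl-WT and 194 Enl-T1 counts, with a log2 ratio of 0.73 (0.21 to 1.27) and nearly equal called widths. Fosl2 had a region 15 kb before its start (chr5:32120645-32121823) at 5.53 and 8.54 CPM in progenitor-like nuclei, a log2 ratio of 0.63, and at 3.62 and 2.27 CPM in stroma-like nuclei, a log2 ratio of -0.68 that was past the fold under 9 of 12 alternatives, with a range of -0.72 to -0.28.

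The region with the lowest ratio lay 37 kb before the annotated 5′ end of Atf3, at chr1:191254165-191255081, between genes. The nearest other coding gene was Nenf at 63.1 kb. The Atf3 start whose promoter is printed above lies well inside the annotated gene. That start is further from the region than Nenf is, so the region is named after Atf3 by the annotated 5′ end alone. Progenitor-like nuclei had 148 counts (5.76 CPM) in Enl-WT and 61 counts (1.57 CPM) in Enl-T1 with a log2 ratio of -1.87 (-2.53 to -1.25), with widths of 900 and 843 bp. The Enl-T1 nuclei of clusters 0 and 1 were at 1.21 and 1.502 CPM, but the 105 Enl-T1 nuclei of cluster 2 were at 10.4 CPM (3.39 to 24.4), beside 5.77 CPM for the Enl-WT nuclei of that cluster. Endothelial-like nuclei, where the region was most open, were at 19.0 and 16.3 CPM. At both the Fos and the Atf3 region the Enl-T1 progenitor-like nuclei that clustered with those of Enl-WT had values nearer to Enl-WT, on few counts. They were placed in that cluster by their accessibility, with the regions around the members in the input. Likeness to Enl-WT was therefore favoured in advance, and no conclusion is drawn from it. The genotype and the cluster cannot be told apart for the rest.

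**Figure D4:**
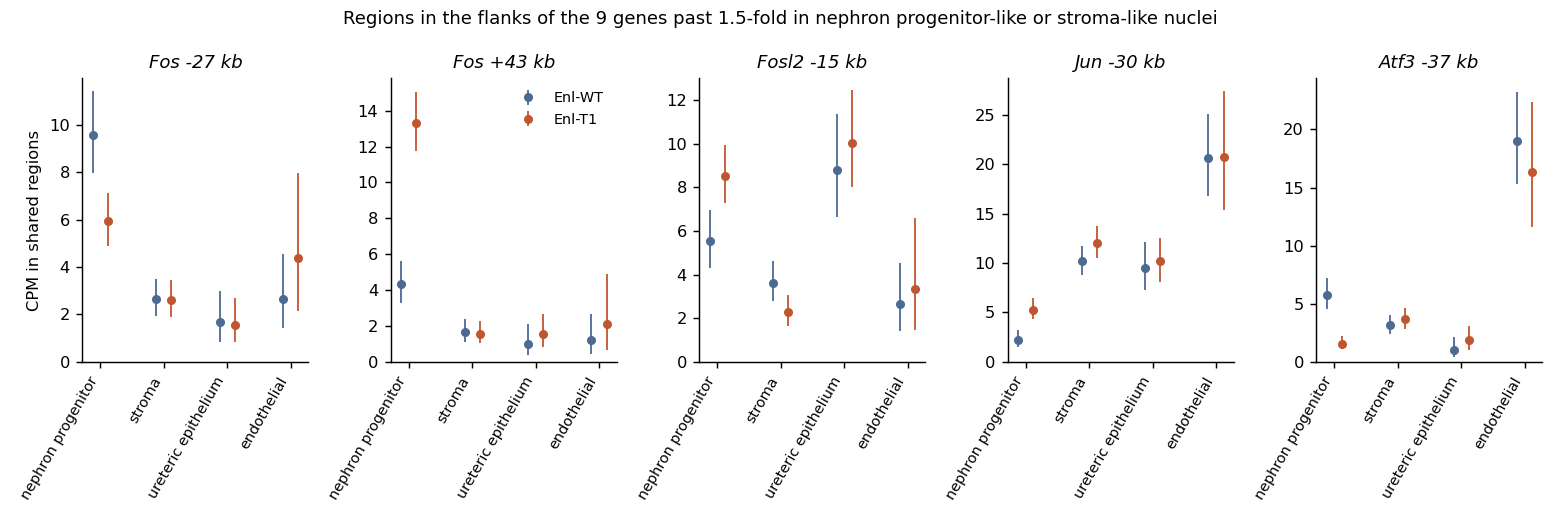
CPM (y axis, from 0) in Enl-WT (blue) and Enl-T1 (orange) by class of nuclei, with 95% counting intervals. The 5 regions lie near Fos, Fosl2, Jun and Atf3, beyond 2 kb of any start site. They were past 1.5-fold in nephron progenitor-like nuclei. Panels are titled by the distance from the annotated 5′ end of the gene. In nephron progenitor-like nuclei the region 43 kb after Fos is higher in Enl-T1 and the region 37 kb before Atf3 is lower, while the other classes differ less.

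The regions that AP-1 could bind were described by their letters. TGACTCA on either strand was in 21205 of the 110706 shared regions (19.2%) and in 16534 of the 79851 beyond 2 kb of a start site (20.7%), and TGACGTCA was in 1753 (1.58%). Beyond 2 kb, the median log2 ratio of regions with an AP-1 site was -0.02 in progenitor-like nuclei beside -0.00 over all such regions, 0.02 beside 0.04 in stroma-like nuclei, and -0.13 beside -0.11 in endothelial-like nuclei. In these classes the regions with a site thus stood close to all others.

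Ureteric epithelium-like nuclei differed. There the median was 0.10 for regions with an AP-1 site beside 0.01 over all regions, and 10.4% of 5052 regions with a site were higher in Enl-T1 and 2.71% lower, beside 5.71% and 3.72%. Of counts beyond 2 kb of a start site, regions with an AP-1 site took 23.0% in Enl-WT and 24.1% in Enl-T1 ureteric epithelium-like nuclei, the highest share of any class in Enl-T1, and 19.3% and 19.2% in progenitor-like nuclei, the lowest. Immune-like nuclei were at 22.9% and 22.8%.

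The makeup of the ureteric class moved with this. Cluster 11, led by genes such as Cldn8, Fxyd4 and Sprr1a, had shares of 26.1% and 26.6% and made up 16.7% (14.3 to 19.2) of the ureteric epithelium-like nuclei of Enl-WT and 36.0% (33.8 to 38.2) of those of Enl-T1. Cluster 4 had shares of 22.7% and 23.4% and made up 74.6% and 49.4%. Within cluster 4 the median log2 ratio was 0.07 for regions with a site and -0.01 for those without, and within cluster 11 it was -0.05 and -0.13. Regions with a site stood above the others within each of these clusters. The part of the makeup in the difference of the whole class was not tested beyond this split, which was chosen after seeing the data.

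**Figure D5:**
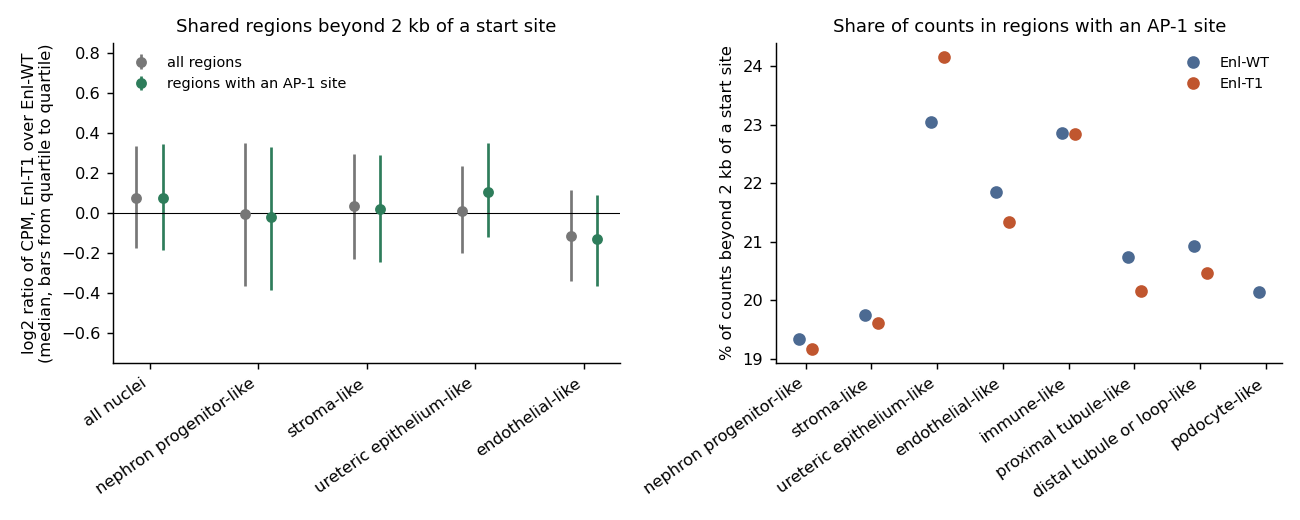
Left, median log2 ratio of CPM (Enl-T1 over Enl-WT, bars from quartile to quartile) over shared regions beyond 2 kb of a start site, for all regions (grey) and those with an AP-1 site (green), in 5 sets of nuclei. Right, percent of the counts in these regions that lie in regions with an AP-1 site, by class and library; ureteric epithelium-like nuclei are highest in Enl-T1 at 24.1% and nephron progenitor-like nuclei lowest at 19.2%.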

How the data were processed

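Per the labels and the methods of the study, the authors sequenced nuclei with the 10x Genomics ATAC kit and used Cell Ranger ATAC 2.1.0 on mm10 (GRCm38), and the deposited counts are whole numbers of fragment ends per peak and barcode, with peaks called separately in each library. No further filter by the authors is in these tables. Here barcodes with 2000 to 100000 counts were kept (9472 in Enl-WT and 12635 in Enl-T1), and peaks that overlap by at least 1 bp were joined into shared regions. A library's count in a region comes from its own peaks, so a wider call adds counts. CPM are relative to all counts in shared regions of the same nuclei. Nuclei of both libraries were clustered together on latent semantic components 2 to 30 with 15 neighbours and Leiden resolution 1, and named from marker genes by a scoring rule set after the clusters were seen. Doublets were kept, and in an alternative 718 and 1277 nuclei most like simulated doublets were removed and the rest clustered and named anew.

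With 1 library per group no test across genes was made. Ratios carry exact binomial intervals on fragments, levels exact Poisson and shares exact Clopper-Pearson intervals, all at 95%. A difference is called past 1.5-fold with at least 200 counts in both libraries together. The ratios, calls and intervals were tried on simulated Poisson counts with known changes. The simulation held no variation between libraries and no difference in peak width, so it checks the computation alone. All 9 members are named, with genes of the 4 lists past the fold and the 5 genes most like the members in level. The members and lists were chosen with earlier results of these data known. Python 3.11.15, NumPy 2.4.6, SciPy 1.17.1, pandas 2.3.3, leidenalg 0.10.2, igraph 0.11.9 and matplotlib 3.10.9 were used.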

Additional observations from a re-analysis of the deposited data

Results flagged for a closer look

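In the windows of the 9 genes, 3 peaks were called in Enl-WT alone and so entered no comparison, and 0 were called in Enl-T1 alone. They lie upstream of Fosl1 (chr19:5444462-5445626) with 669 counts, in an intron of Atf3 (chr1:191179809-191180681) with 861 counts, and over the coding sequence and UTR of Egr1 (chr18:34863135-34863978) with 525 counts, all above the floor of 3 counts. Reads of Enl-T1 at these places are not counted in its table, so a level in Enl-T1 is not known, and the lower depth per nucleus of Enl-T1 cannot be told apart from a difference in openness.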

How the results depend on the processing

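No paired analysis was possible because each group has 1 library. Over the alternatives, 706 values of single members were computed, of which 622 moved by less than their interval, 84 moved further and 3 were past 1.5-fold (Fosl1 in progenitor-like nuclei over matched regions, and Fosb and Fosl1 in endothelial-like nuclei per kb). The median log2 ratio of the members in all nuclei was 0.0221 over matched regions and 0.0554 over every peak. Per kb of called peak, a setting chosen after seeing the data, it was 0.13 in all nuclei, 0.26 for nephron progenitors, 0.30 for stroma, 0.28 for ureteric epithelium and 0.20 for endothelium. The median of regions with the AP-1 letters was 0.0742 beyond 2 kb of a start site, 0.0547 over matched regions and 0.0345 with 5000 counts per nucleus in all nuclei, -0.00856 over matched regions in progenitor-like nuclei, and 0.0217 beyond 2 kb and 0.0177 over matched regions in stroma-like nuclei. Beyond 2 kb it was 0.10 for ureteric epithelium and -0.13 for endothelium. The median log2 ratio of the shares of nuclei was 0.0294 in all nuclei after thinning, -0.00334 in progenitor-like and 0.13 in stroma-like nuclei, and in endothelial-like nuclei it turned from -0.60 to 0.00574. Thinning gives every nucleus the same depth. Ratios near 0 changed sign, such as that of Fosl2 in progenitor-like nuclei, below 0 under 5 of 17 alternatives and above under 12. Each list had at most 3 genes past the fold in progenitor-like and stroma-like nuclei, the classes in which alternatives were run for the lists. The regions 43 kb after Fos, 15 kb before Fosl2, 30 kb before Jun and 37 kb before Atf3 were past the fold in progenitor-like nuclei under 12 of 12 alternatives, and that 27 kb before Fos under 9 of 12, as was the region 15 kb before Fosl2 in stroma-like nuclei. Differences below the counting intervals were not detectable at this depth, and variation between embryos was not measured.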
